A study of Mus musculus with 48 samples.

Results

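Astrocytes of control mice at postnatal day 28 (P28) were compared between the olfactory bulb, a relay of the olfactory system that receives newly born interneurons throughout life, and the cerebral cortex. The comparison used 3 olfactory bulb and 4 cortex RNA-seq libraries of the 48 libraries in the series, chosen by the region, age and genotype that the labels give. All 7 libraries carry the genotype label Gabbr1 control. Gabbr1 encodes a subunit of the metabotropic GABA-B receptor. The labels name no Cre line or promoter for the deletion that these mice controlled for. Tamoxifen is listed as a treatment for the 3 bulb libraries and for cortex replicates 3 and 4, and is not listed for cortex replicates 1 and 2. Region differences were also read in 3 bulb and 4 cortex libraries of Gabbr1 conditional knockout (cKO) mice of the same age, and in 3 bulb and 4 cortex libraries at P14, for which no genotype or treatment is labelled. Tamoxifen is listed for the 3 bulb cKO libraries and for cortex cKO replicate 4. How the astrocytes were purified and how many animals each library held is not given in the sources used here. The p-values therefore measure the spread between libraries, which may be technical.

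Astrocytes keep a record of the part of the neural tube they arose from, in part through transcription factors that patterned the embryonic forebrain. Across regions they share a core programme of glutamate and GABA uptake, potassium buffering and sterol supply to neurons. Olfactory bulb astrocytes border circuits dominated by GABA-releasing granule and periglomerular interneurons. The GABA-B receptor is an obligate pair of Gabbr1, which binds GABA, and Gabbr2, which couples to G proteins, and it is present in astrocytes as well as in neurons.

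Levels are given as reads rescaled so that the median gene matched across the 7 libraries, without the ribosomal transcript Rn45s, and they are not corrected for gene length. Differences are olfactory bulb minus cortex of log2(value + 1), so that for low values the printed change is smaller than the ratio of the levels. They were tested with limma and Benjamini-Hochberg adjustment over the 10700 genes with a mean of at least 10, and a gene was called at an adjusted p under 0.05. The authors normalized the bulb and cortex tables separately, so the region difference rests on the joint rescaling of the recovered reads.

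The 7 libraries held 1859933 to 4133495 reads. Rn45s took 27.0% to 35.8% of the reads in 6 libraries and 0.476% in bulb replicate 2. On log2 values, bulb replicates 1 and 3 correlated at 0.92 with each other and at 0.735 and 0.75 with bulb replicate 2, against 0.856 to 0.94 among the cortex libraries. Cortex replicate 4 held Xist at 4107 rescaled reads, against at most 2.64 in any other library, and had no Ddx3y read, the pattern of a female, and the other 6 had Ddx3y reads, the pattern of males. The targeted gene was present in all 7 controls, at 447.7 to 764.2 CPM of Gabbr1 (without Rn45s) in cortex against 36.44 to 104.1 in cKO cortex. In bulb it was at 58.34 to 116.4 in controls and 23.82 to 38.27 in cKO libraries. The summed level of 22 astrocyte markers was 105030 to 138750 in bulb and 211740 to 367450 in cortex, and Slc1a2 alone supplied most of the gap.

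Olfactory bulb and cortex astrocytes differed in 446 of 10700 genes (4.17%). By limma, 252 were higher in the olfactory bulb (2.36% of the genes tested) and 194 higher in the cortex (1.81%). The median difference was 2.93 among the genes higher in bulb and -1.80 among those higher in cortex, beside 0.02 over all tested genes. Many of the bulb genes were near absent from cortex: 85 of the 252 had a median cortex value under 10, and 5 had no read in any cortex library. The groups of all 446 called genes were separate, and over all tested genes 1835 (17.1%) had groups that did not overlap, 9.48% with bulb above and 7.67% with bulb below. At an unadjusted p under 0.05 the share was 17.6%. By edgeR 2.34% of genes were called higher in bulb and 1.44% higher in cortex, and 3.54% were called by both tools. On the authors' own separately scaled values the count was 736, with 632 higher in bulb and 104 higher in cortex, and the median over all genes moved to 0.44. Without bulb replicate 2 the count was 323, and 44.3% of these were higher in bulb. It fell to 292 without cortex replicate 1, to 282 without cortex replicate 2 and to 287 without bulb replicate 1.

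The region difference recurred in libraries that took no part in the control comparison. In the cKO libraries 913 of 10862 genes were called (8.41%). The count was 470, 481 and 523 without bulb replicates 2, 1 and 3, and 1409 without cortex replicate 4. By edgeR it was 497, in a fit that also left out bulb cKO replicate 2, for which limma gave 470. Of the 252 genes higher in control bulb, 216 were also called higher in cKO bulb, which is 85.7% of the control list and 41.7% of the 518 cKO calls (4.77% of the genes tested). Of the 194 higher in control cortex, 169 were called higher in cKO cortex, 87.1% of the control list and 42.8% of the 395 cKO calls (3.64%). At P14, where 3656 of 11603 genes were called (31.5%), 203 of the bulb genes were called in the same direction (80.6% of the control list and 11.3% of the P14 bulb calls, which were 15.5% of the genes tested). For the cortex genes it was 180 (92.8% and 9.71%), with 16% of the genes tested called higher in P14 cortex. No gene was called in opposite directions between control and cKO, or between control and P14. A test of whether the region difference itself differed between genotypes called 0 of 10825 genes in limma, with 272 at an unadjusted p under 0.05 (2.51%). In edgeR, run without bulb cKO replicate 2, it called 0, with 248 at an unadjusted p under 0.05. Gabbr1, the deleted gene, was among those not called (-3.03 in controls, -1.07 in cKO, limma adjusted p = 0.999). The 0 calls therefore do not show that the region difference is the same in both genotypes.

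**Figure D1:**
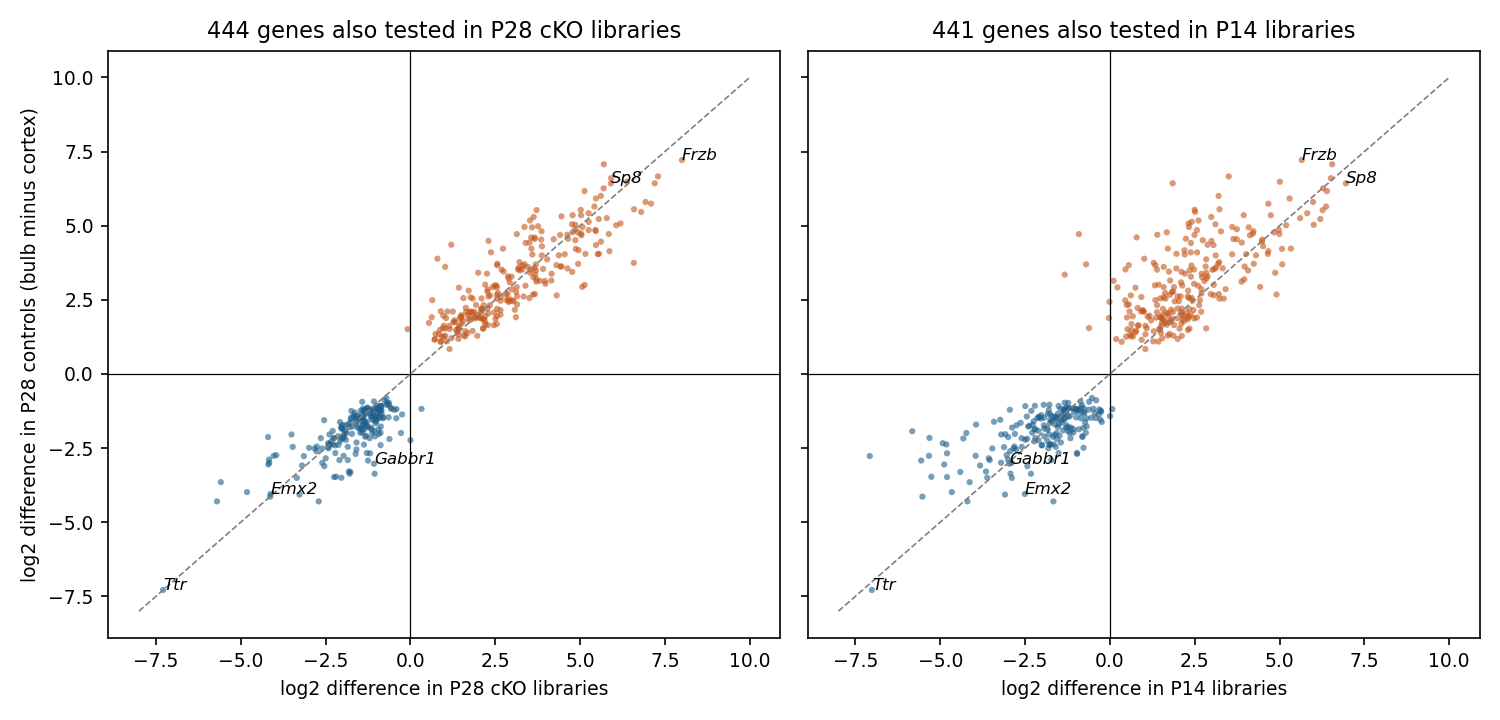
Region differences (log2, bulb minus cortex) of the 446 called genes in P28 controls, on the vertical axis, against the same difference in cKO libraries (left, 444 genes) and P14 libraries (right, 441 genes), on the horizontal axes. Orange points are genes higher in control bulb, blue points genes higher in control cortex, and the dashed line marks equal differences. In cKO libraries 249 of 250 orange and 192 of 194 blue points kept their sign.

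Transcription factors separated the regions by the embryonic territory they are known for. Emx2, a homeodomain factor of the developing dorsal telencephalon, stood at 342, 258, 189 and 163 in the 4 cortex libraries and at 16.6, 15.9 and 7.97 in the 3 bulb libraries. The groups lay far apart, with a difference of -4.05 ± 0.40 (SE; adjusted p = 2.74e-04), and -4.12 in the cKO libraries. Sp8, a zinc finger factor of olfactory bulb interneuron precursors, gave 1 read over the 4 cortex libraries. Its bulb levels were 79.3, 103 and 112, close to each other in all 3 libraries. The ratio of bulb to cortex was 561, with a 95% counting interval of 101 to 22200 from the single cortex read, and the log2 difference was 6.43 ± 0.84 (adjusted p = 0.0014).

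Other patterning factors fell on both sides. The orphan nuclear receptors Nr2f1 and Nr2f2 (COUP-TFI and COUP-TFII), close relatives that pattern the forebrain, went in opposite directions. Nr2f1 was at 124 to 171 in cortex and at 29.6, 10.6 and 24.6 in bulb, a difference of -2.84 ± 0.40 (adjusted p = 0.0023). Nr2f2 was at 3.27 to 42 in cortex and at 151.7, 126.9 and 268 in bulb (3.44 ± 0.67, adjusted p = 0.013). Neither pair of groups overlapped. Zic1, a zinc finger factor expressed in the septum and the olfactory bulb, was higher in bulb by 3.04 ± 0.44. It stood at 175.2, 161.3 and 156.4 in bulb against 9.82 to 31 in cortex. Cortex levels were higher for Gli3, the transducer of Hedgehog signals that shapes the dorsal telencephalon (-1.57 ± 0.24), for Dbx2 (-1.55 ± 0.25), for Nr2e1, an orphan receptor of neural stem cells also named Tlx (-1.17 ± 0.23), and for Id2, an inhibitor of basic helix-loop-helix factors (-1.19 ± 0.28).

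Over all tested genes 2.36% were higher in bulb and 1.81% higher in cortex, and every list count here and below stands beside these shares. Of the 15 tested pallial and forebrain factors, 3 were higher in cortex and 1 in bulb, with a median of 0.01. Of the 13 tested subpallial and bulb lineage factors, 3 were higher in bulb and 0 in cortex, with a median of 2.67. Glial factors held 2 cortex calls (Id2 and Dbx2) and 0 bulb calls among 21. The call of Emx2, Nr2f1, Sp8, Zic1, Gli3 and Dbx2 held when each library was left out in turn. For Nr2f2 the adjusted p reached 0.0607 without bulb replicate 3, for Nr2e1 0.0602 without bulb replicate 3 and over 0.05 also without bulb replicate 1, and for Id2 0.108 without cortex replicate 1 and over 0.05 in 5 further fits.

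Other factors were not called. Sox9, a master factor of astrocytes, was lower in every bulb library (532 to 783 against 941 to 1339), and its difference of -0.85 (95% interval -1.35 to -0.34) had an adjusted p of 0.067. Lhx2 overlapped between the regions with bulb replicate 2 (657) reaching into the cortex range of 595 to 984, and its difference was -0.95 (adjusted p = 0.122).

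**Figure D2:**
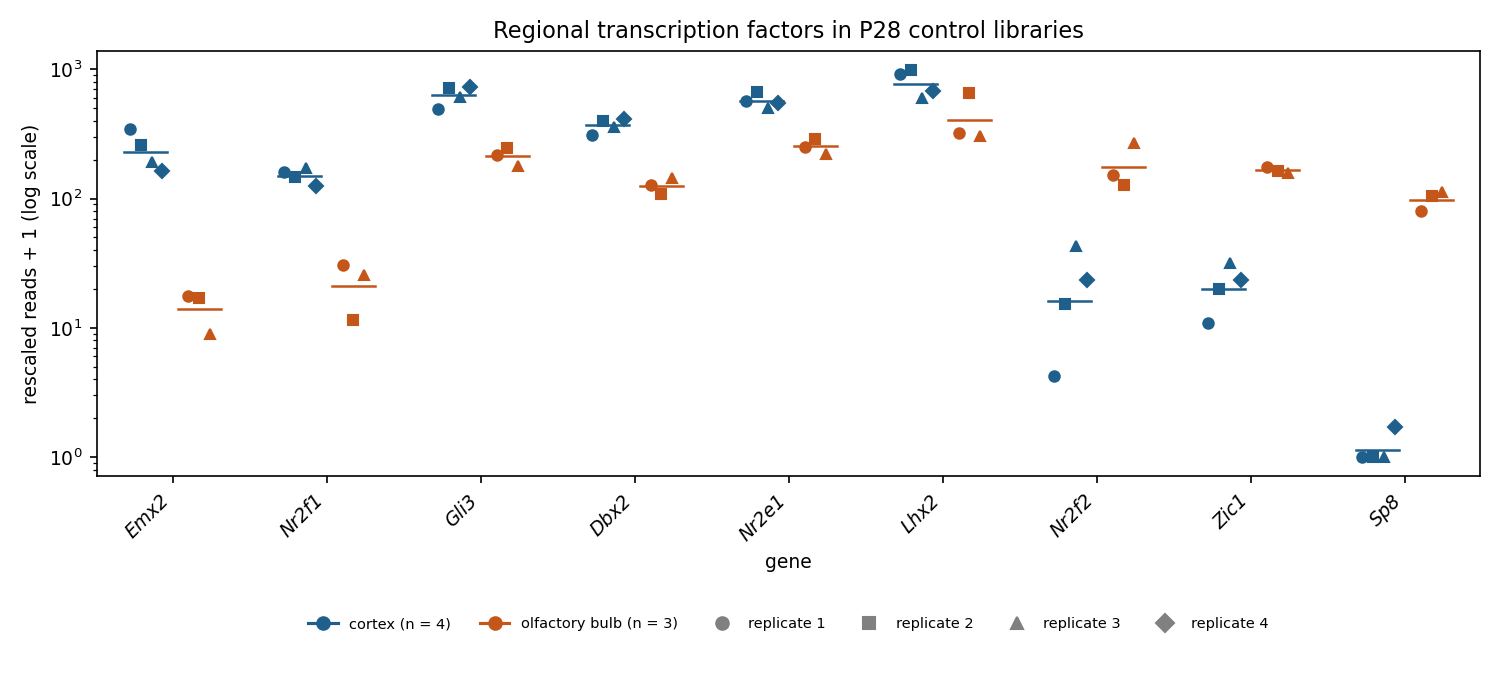
Rescaled reads + 1 (log axis) of 9 regional transcription factors in each P28 control library. Blue symbols are the 4 cortex libraries and orange symbols the 3 olfactory bulb libraries, symbol shape gives the replicate, and lines are means on the log scale. The groups are apart for all but Lhx2.

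The start regions of a cortex gene (Emx2), of bulb genes (Sp8 and Frzb) and of the receptor gene under study (Gabbr1) are printed to show what stands at the start of genes that differ between regions. Each run is 300 bases from RefSeq on GRCm38.p6, from 250 before to 50 after a transcription start, 5′ to 3′ on the gene's strand. Capitals mark a searched motif: TAATTA, a homeodomain core, in Emx2 and Sp8, and CAGCTG, an E-box, in Frzb. Sp8 has 3 starts, and the printed one is the only one with TAATTA. Of the others, 1 holds TTGGCA and 1 holds none of the searched motifs. The Emx2 run is chr19:59458440-59458739 on the plus strand, the Sp8 run chr12:118847309-118847608 on the plus strand (1 of 3 Sp8 starts), the Frzb run chr2:80447347-80447646 on the minus strand, and the Gabbr1 run chr17:37045716-37046015 on the plus strand.
Emx2: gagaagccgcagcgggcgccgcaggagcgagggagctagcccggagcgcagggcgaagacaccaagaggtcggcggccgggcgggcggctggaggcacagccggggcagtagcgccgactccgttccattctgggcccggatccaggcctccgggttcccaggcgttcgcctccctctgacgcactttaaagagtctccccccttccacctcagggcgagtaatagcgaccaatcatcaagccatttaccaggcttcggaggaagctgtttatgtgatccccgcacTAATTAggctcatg
Sp8: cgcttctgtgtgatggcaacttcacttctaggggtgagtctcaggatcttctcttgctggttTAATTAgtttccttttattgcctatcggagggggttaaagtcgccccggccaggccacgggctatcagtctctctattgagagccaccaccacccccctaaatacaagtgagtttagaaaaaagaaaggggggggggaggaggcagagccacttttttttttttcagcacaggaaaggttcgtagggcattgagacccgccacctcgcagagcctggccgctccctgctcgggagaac
Frzb: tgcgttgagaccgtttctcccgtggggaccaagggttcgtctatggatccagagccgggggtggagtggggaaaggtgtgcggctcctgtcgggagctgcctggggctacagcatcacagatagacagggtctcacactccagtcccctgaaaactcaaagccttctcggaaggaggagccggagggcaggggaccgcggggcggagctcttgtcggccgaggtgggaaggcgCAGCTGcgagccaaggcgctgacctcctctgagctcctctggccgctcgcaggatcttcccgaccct
Gabbr1: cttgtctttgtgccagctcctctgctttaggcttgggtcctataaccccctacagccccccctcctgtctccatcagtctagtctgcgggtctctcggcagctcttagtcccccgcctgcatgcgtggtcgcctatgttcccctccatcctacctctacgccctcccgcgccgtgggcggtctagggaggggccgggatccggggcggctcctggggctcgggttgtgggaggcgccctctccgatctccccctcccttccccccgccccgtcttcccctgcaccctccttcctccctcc
TAATTA stood on either strand in 6.67% of the 150 promoters of genes higher in cortex, in 3.83% of the 183 of genes higher in bulb and in 3.29% of the 8217 of all tested genes. CAGCTG stood in 22.7%, 23.0% and 17.8% of the same sets. TTGGCA, a core of the nuclear factor I site, stood in 16.7%, 14.2% and 13.8%. The SOX motif ACAATGG stood in 1.33%, 3.83% and 2.58%, and the forkhead motif TGTTTAC in 4.0%, 1.64% and 2.95%. The full palindromic nuclear factor I site was found in 3 promoters of all tested genes and in 0 of the called ones. These shares are descriptions and were not tested, and the Gabbr1 run holds none of the 6 motifs.

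GABA-B receptor transcripts were several-fold lower in olfactory bulb astrocytes. Gabbr1 (chr17:37045966-37074305) was at 1803, 1964, 1169 and 939 in cortex and at 241.4, 142.8 and 144.9 in bulb, means of 1469 ± 493 (SD, n = 4) and 176 ± 56 (SD, n = 3). The lowest cortex library was several times above the highest bulb library. The difference was -3.03 ± 0.31 (adjusted p = 3.18e-04), and at P14 it was -2.96 ± 0.12. Its partner Gabbr2 was at 1277, 1300, 911 and 826 in cortex and at 399, 409 and 281 in bulb (-1.56 ± 0.26, adjusted p = 0.0048), again with no overlap. In the cKO libraries, where Gabbr1 itself was deleted, its region difference was -1.07 (adjusted p = 0.053), while that of Gabbr2 was -2.54. Kctd12, an auxiliary subunit that desensitizes the GABA-B receptor, went the other way. It was at 52.4, 67.7, 308 and 233 in cortex and at 1402, 1313 and 3486 in bulb, a difference of 3.87 ± 0.58 (adjusted p = 0.0027). Cortex replicates 3 and 4 stood above replicates 1 and 2 for this gene, and all stayed below the bulb. In bulk libraries such as these, fewer cells of a type and less RNA per cell cannot be told apart.

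Gabrg3, a subunit of the ionotropic GABA-A receptor, was higher in bulb. It was at 6.55 to 13.1 in cortex and at 83.7, 577 and 70.2 in bulb (3.89 ± 0.70, adjusted p = 0.0076). Bulb replicate 2 was several times above the other bulb libraries for Gabrg3, and the difference was 0.80 (adjusted p = 0.317) in the cKO libraries. Of the 13 tested GABA receptor genes, 3 were higher in bulb and 2 in cortex, with a median of 1.15.

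Slc6a11, the astrocyte GABA transporter known as GAT3, was at 2764, 3270, 2629 and 2372 in cortex and at 10834, 7538 and 10117 in bulb. All bulb libraries lay above all cortex libraries, by 1.78 ± 0.24 (adjusted p = 0.0017), and by 2.19 in cKO and 1.81 at P14. The GABA-synthesizing enzymes Gad1 and Gad2 were higher in bulb by 5.29 ± 0.91 and 5.05 ± 0.73. Both mark inhibitory neurons, and Gad2 was at 129, 506 and 127 in bulb and 1.09 to 14.7 in cortex. Aldh1a1, an aldehyde dehydrogenase of a route from putrescine to GABA, was higher in cortex (396 to 1667 against 136 to 250), by -1.93 ± 0.42. Its adjusted p of 0.023 reached 0.0964 without bulb replicate 2, and it was also over 0.05 without cortex replicate 2. Of 10 tested genes of GABA uptake and metabolism, 3 were higher in bulb and 1 in cortex.

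Glutamate genes were called in both directions. AMPA receptor subunits, which form fast glutamate channels, were all higher in bulb. Gria1 was at 146.3, 61.8, 50.9 and 50.4 in cortex and at 2361, 1578 and 1215 in bulb. Each bulb library was far above each cortex library, with a difference of 4.55 ± 0.38 (adjusted p = 9.94e-05), 3.65 in cKO and 3.64 at P14. Gria4 was at 1.19 to 40.9 in cortex and at 532, 480 and 267 in bulb (4.88 ± 0.80, adjusted p = 0.0048). Gria3 differed by 2.32 ± 0.35, and Gria2, the subunit that blocks calcium entry, by 1.70 ± 0.36 from a higher base of 443 to 1502 in cortex. All 4 were also called higher in bulb in the cKO and P14 libraries.

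Metabotropic receptors split by type. Grm5, a receptor coupled to calcium release that young astrocytes are known for, was higher in bulb (264 to 583 against 77.4 to 240, 1.88 ± 0.41). Grm3, the receptor that dominates in adult astrocytes, was higher in cortex, at 3003, 3188, 2126 and 2086 against 575, 499 and 414 (-2.37 ± 0.24, adjusted p = 3.18e-04). The NMDA subunit Grin2c differed by -1.21 ± 0.25. The main glutamate transporter Slc1a2 (GLT1) was at 262260, 233300, 164720 and 133680 in cortex and at 67775, 65753 and 39610 in bulb, by -1.77 ± 0.42 (adjusted p = 0.037). The groups for Slc1a2 were well separated, although cortex replicates 3 and 4 were nearer to the bulb. The second transporter, Slc1a3 (GLAST), was 15464 to 17480 in cortex and 13114 to 15297 in bulb, with a difference of -0.21 (interval -0.76 to 0.34). Glutamine synthetase, Glul, differed by -0.49 (interval -1.15 to 0.17).

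Over the glutamate list 5 of 15 tested genes were higher in bulb and 3 in cortex, with a median of -0.11. Calls for Gria1, Gria3, Gria4 and Grm3 held without each library in turn. The bulb count was 3 without bulb replicate 2 and 3 without cortex replicate 1, and the cortex count was 1 without cortex replicate 1 or 2 or bulb replicate 1 or 3. Slc1a2 lost its call in 6 of 7 such fits, with an adjusted p up to 0.166 without bulb replicate 3. Over all 28 alternative settings Slc1a2 lost it in 14, with an adjusted p up to 0.47. In edgeR Slc1a2 was called at an adjusted p of 0.0097, and Gria2 was not called (0.055). Grm5, Gria2 and Grin2c each lost it in 4 of 7, with adjusted p-values up to 0.0975 without bulb replicate 1, 0.0748 without cortex replicate 2 and 0.0787 without bulb replicate 1. The bulb neuron markers given below were also higher in bulb, and their part in the AMPA and GABA-A subunit values was not tested.

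**Figure D3:**
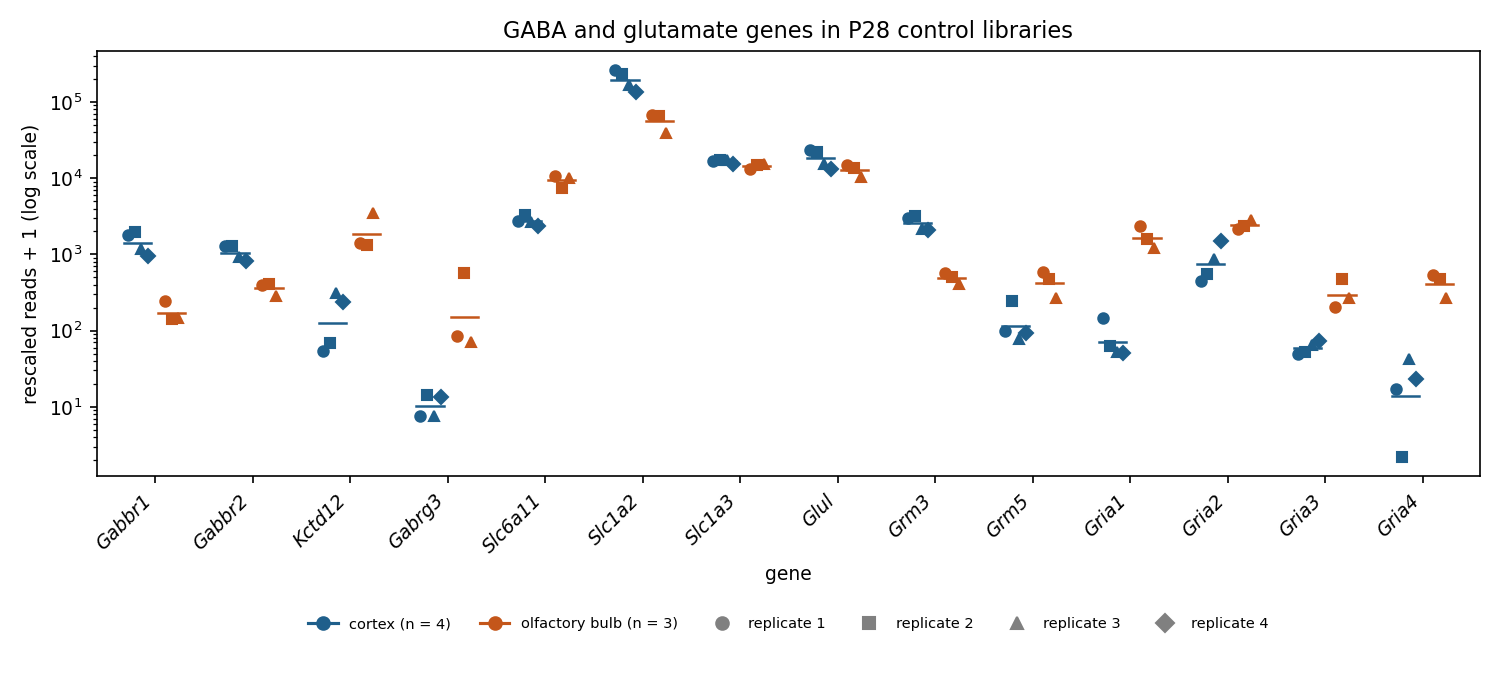
Rescaled reads + 1 (log axis) of 14 GABA and glutamate genes in each P28 control library, in blue for the 4 cortex and orange for the 3 olfactory bulb libraries, with symbol shape giving the replicate and lines the means on the log scale. Gabbr1, Gabbr2, Slc1a2 and Grm3 lie lower in bulb, Kctd12, Slc6a11 and the Gria genes higher.

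Of 25 tested genes for cholesterol synthesis and lipoproteins, 13 were higher in cortex and 1 in bulb, with a median of -1.13 beside 0.02 over all tested genes. All 13 were also called higher in cortex in the cKO libraries. Astrocytes are a main source of sterols for neurons in the mature brain. Hmgcs1, which makes the committed precursor, was at 3589, 2853, 2534 and 1859 in cortex and at 1029, 385 and 582 in bulb (-2.10 ± 0.33, adjusted p = 0.0038). Msmo1, a late demethylation enzyme, was at 824, 655, 885 and 970 in cortex and at 207, 111 and 166 in bulb (-2.39 ± 0.27, adjusted p = 6.47e-04). The groups did not overlap for either gene, and cortex libraries varied less for Msmo1 than for Hmgcs1.

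The calls ran along the pathway, from Hmgcs1 through Mvd (-2.46) and Idi1 (-1.62) to squalene formation by Fdft1 (-2.12) and its oxidation by Sqle (-0.94). Below lanosterol they took in Cyp51 (-1.90), Msmo1, Nsdhl (-1.93) and Dhcr7 (-2.67). Insig1, the sterol-sensing retention protein of the same feedback loop, differed by -1.21. Srebf2, the transcription factor of the pathway, was lower in every bulb library (78 to 176 against 225 to 397) but was not called (-1.21, adjusted p = 0.069), and Lss, the enzyme between Sqle and Cyp51, differed by -0.71 (adjusted p = 0.274). The fatty acid genes Fasn and Scd1 were at -0.62 (interval -1.11 to -0.12) and -0.59 (interval -1.41 to 0.22) and were not called. Among lipoproteins, Clu was higher in cortex (8352 to 13219 against 1854 to 2663, -2.22 ± 0.26), Apoe was not called (-0.51, interval -1.28 to 0.26), and Apod was higher in bulb (4.78 ± 1.12, adjusted p = 0.033).

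The cortex count of this list was 13 without bulb replicate 2 and between 7 and 10 without each other library, lowest without cortex replicate 3. Calls for Hmgcs1, Idi1, Fdft1, Cyp51, Msmo1, Nsdhl and Clu held in each of these fits. Sqle lost its call in 6 of the 7 (adjusted p up to 0.141, without bulb replicate 3). Dhcr7, Insig1 and Apod each lost it in 5 (up to 0.123 without cortex replicate 1, 0.138 without bulb replicate 1 and 0.111 without bulb replicate 2), and Mvd in 2 (0.0756 without cortex replicate 3). On the separately scaled deposited values 8 were called higher in cortex.

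**Figure D4:**
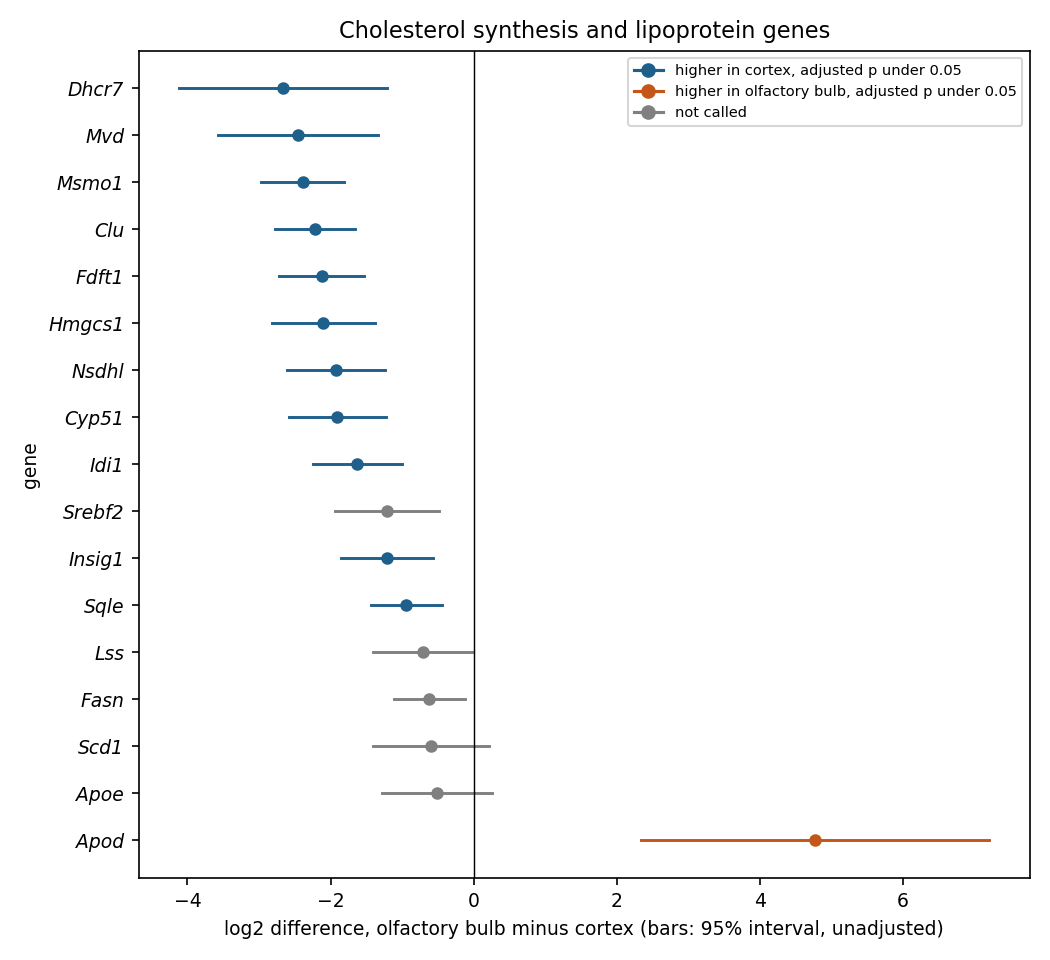
Region differences (log2, bulb minus cortex, horizontal axis) of the 17 cholesterol and lipoprotein genes named in the text, of 25 tested, with unadjusted 95% intervals. Blue genes were called higher in cortex (11), orange genes higher in bulb (1), and grey genes were not called (5).

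Astrocyte identity genes were detected in both regions. Of 22, 6 were higher in cortex and 0 in bulb (median -0.82), namely Slc1a2, Clu and Grin2c, given above, with the metabolic enzyme Aldh1l1, the growth factor receptor Fgfr3 and the gap junction gene Gjb6. Aldh1l1, which is widely used to mark astrocytes, was at 655, 649, 444 and 429 in cortex and at 325, 130 and 222 in bulb (-1.33 ± 0.32). Fgfr3 was at 1263 to 1769 in cortex and 581, 206 and 654 in bulb (-1.81 ± 0.36), and Gjb6 was at 1171 to 1392 against 424 to 750 (-1.19 ± 0.24). Neither pair of groups overlapped. The water channel Aqp4 differed by 0.46 (interval -0.07 to 1.00), the gap junction gene Gja1 by -0.68 (adjusted p = 0.181), the potassium channel Kcnj10 by 0.90 (adjusted p = 0.304) and the filament gene Gfap by 0.87 (adjusted p = 0.19). The count of cortex calls for the list was 3 without cortex replicate 1, 3 without cortex replicate 2 and 3 without bulb replicate 3. It was 8 without cortex replicate 4. Aldh1l1 reached an adjusted p of 0.115 without cortex replicate 2, and Gjb6 of 0.0741 without bulb replicate 1.

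Among the genes higher in cortex, those with the largest differences were outside the astrocyte marker list. The 15 chosen by size were Ttr, Slco1c1, Car8, Emx2, Rims1, Eogt, St3gal4, Npas2, Bcas1, Hsd11b1, Thy1, Ephb1, Gabbr1, Dkk3 and Unc13c. Car8, a carbonic anhydrase relative without enzymatic activity that binds the inositol trisphosphate receptor, was at 676, 624, 437 and 363 in cortex and at 30.5, 33.1 and 15.2 in bulb (-4.30 ± 0.35, adjusted p = 9.94e-05). Dkk3, a secreted member of the Dickkopf family, was at 1255, 1226, 988 and 1008 against 156.9, 104.5 and 161.5 (-3.00 ± 0.24, adjusted p = 9.94e-05). Within each region the values of Dkk3 were close together. Eogt, which adds O-linked N-acetylglucosamine to secreted domains, was at 619 to 947 against 45.32 to 105.01 (-3.51 ± 0.30). Unc13c and Rims1, better known from presynaptic release sites, were at 277 to 673 against 39.1 to 96.8 and at 114 to 315 against 10.9 to 14.6. Hsd11b1, which regenerates active glucocorticoid, differed by -3.11 ± 0.38, and the ephrin receptor Ephb1 by -3.05 ± 0.39. All 15 were called higher in cortex at P14 as well, where 16% of the genes tested were. In the cKO libraries not all were called, since Gabbr1, the deleted gene, had a limma adjusted p of 0.053.

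Slco1c1, the thyroxine and organic anion transporter, was at 720, 645, 1201 and 1795 in cortex and at 117.7, 7.93 and 123 in bulb (-4.30 ± 0.75, adjusted p = 0.0069). It is also known from brain endothelium, whose summed markers were 280.5 to 953.5 in cortex and 250.2 to 655.5 in bulb. Dio2, the deiodinase that activates thyroid hormone in astrocytes, was lower in every bulb library (1588 to 3746 against 4655 to 7741) and was not called (-1.07, adjusted p = 0.089). The glucose transporter Slc2a1 (-1.98 ± 0.39) and Pdk4, a brake on pyruvate oxidation (-1.34 ± 0.33), were higher in cortex. Pdk4 lost its call in 6 of 7 fits without a library, with an adjusted p up to 0.11 without bulb replicate 3. Of 21 tested genes of thyroid hormone, serine and energy metabolism, 3 were higher in cortex and 0 in bulb (median -0.54).

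Ttr, the thyroxine carrier made by choroid plexus, differed most but varied most. It was at 514, 355, 9.96 and 7522 in cortex and at 0.87, 0 and 5.07 in bulb. The call (-7.29 ± 1.57, adjusted p = 0.022) was lost in 4 of 7 fits, with an adjusted p up to 0.102 without bulb replicate 2. Choroid plexus and ependyma markers summed to 54.21 to 7784 in cortex and 33.06 to 68.8 in bulb. Bcas1 and Mbp mark oligodendrocytes, whose summed markers were 3002 to 16041 in cortex and 2117 to 8365 in bulb, and their differences were -3.36 (adjusted p = 0.034) and -2.34 (adjusted p = 0.023). Bcas1 lost its call in 6 of 7 fits (0.0764 without cortex replicate 1) and Mbp in 2 (0.102 without bulb replicate 2). St3gal4 reached 0.078 without cortex replicate 1 and Npas2 0.0873 without cortex replicate 2. The part of other cells in these values was not tested.

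Mertk, a receptor by which astrocytes engulf synapses, was at 1058, 1194, 1290 and 1491 in cortex and at 180, 87.3 and 290 in bulb (-2.91 ± 0.35, adjusted p = 7.78e-04). Gas6, its bridging ligand, and Mfge8, another bridge to exposed phosphatidylserine, were picked after their values were seen. Gas6 was at 230 to 490 in cortex and 21.2 to 64.5 in bulb (-2.92 ± 0.41), and Mfge8 at 898 to 1448 against 131 to 428 (-2.12 ± 0.37). The groups were apart for Mertk, Gas6 and Mfge8, each call held without each library in turn, and each was called higher in cortex in the cKO and P14 libraries. Megf10, another receptor for engulfment, overlapped between the regions (635 to 794 in cortex, 419 to 981 in bulb) and was not called (-0.25, adjusted p = 0.695). Its sign turned without bulb replicate 2 (0.035). Of 24 tested secreted and adhesive synapse factors, 2 (Mertk and Gpc6) were higher in cortex and 1 (Thbs2) in bulb, with a median of 0.06. The shares over all tested genes were 1.81% higher in cortex and 2.36% higher in bulb. Gpc6, a glypican that recruits AMPA receptors, differed by -1.20 ± 0.26 and lost its call in 4 of 7 fits (0.101 without bulb replicate 1). Thbs2, a thrombospondin that induces synapses, was at 0, 8.32, 9.96 and 7.71 in cortex and at 160, 192 and 200 in bulb (5.07 ± 0.78, adjusted p = 0.0035).

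Matrix, stress and receptor genes held few calls each, beside 2.36% of all tested genes higher in bulb and 1.81% higher in cortex. In the matrix list 1 of 18 tested genes was higher in cortex (Hapln1, which links hyaluronan to proteoglycans, -1.32 ± 0.24) and 1 in bulb (Fbln2, 2.65 ± 0.53). Among 19 filament and reactive genes, Vim was higher in bulb (1.75 ± 0.40) and the metallothioneins Mt1 and Mt2, which bind zinc, higher in cortex (-1.45 ± 0.32 and -1.60 ± 0.31). Ednrb, the endothelin receptor of astrocytes, differed by 0.84 ± 0.21, and P2ry1, a purine receptor, by 4.69 ± 0.84, the 2 calls among 13 calcium and transmitter receptor genes. P2ry1 was at 0, 1.19, 7.74 and 6.3 in cortex and at 69.7, 106 and 91.2 in bulb. In the signalling list, Bmpr1b (-1.20 ± 0.24), Gli3 and Fgfr3 were higher in cortex and Hey2, a Notch target, in bulb (2.11 ± 0.45), out of 38 tested. Kcnn2, a calcium-gated potassium channel (-1.73 ± 0.40), and Gjb6 were the 2 calls among 22 channel genes. Calls for Hapln1, Mt2, P2ry1 and Bmpr1b held without each library. Ednrb lost its call in 6 of the 7 fits (adjusted p up to 0.146, without bulb replicate 3), Kcnn2 in 5 (0.0899, without bulb replicate 2) and Mt1 in 4 (0.0967, without bulb replicate 3). Vim lost it in 3 (0.097, without bulb replicate 2), Hey2 in 3 (0.0953, without bulb replicate 3) and Fbln2 in 1 (0.0875, without bulb replicate 3).

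The 15 genes chosen by size on the bulb side were Frzb, Prokr2, Fndc1, Tex15, Clca3a1, S1pr3, Sez6, Npy, Unc5d, Prrg3, Postn, Grik3, Dnah8, Islr and Tiam1. Frzb, a secreted inhibitor of Wnt signals, had 3 reads in cortex, all in replicate 4, and stood at 88, 171 and 500 in bulb. The bulb libraries spread several-fold but all lay far above cortex, with a ratio of 482 (95% counting interval 165 to 2340) and a log2 difference of 7.21 ± 0.85 (adjusted p = 7.47e-04). Prokr2, the prokineticin receptor needed for olfactory bulb neurogenesis, had 3 cortex reads and stood at 186, 832 and 35.5 in bulb, a ratio of 668 (interval 229 to 3240). Islr, a secreted leucine-rich repeat protein of fibroblasts, was at 7.64 to 47.5 in cortex and at 760, 463 and 842 in bulb (5.26 ± 0.54). Postn, a matrix protein, was at 0 to 9.81 against 126, 106 and 222 (5.53 ± 0.94), and the kainate receptor gene Grik3 at 0 to 9.96 against 233, 128 and 248 (5.46 ± 0.77). S1pr3, a sphingosine phosphate receptor, was at 0 to 7.71 against 90.7, 263 and 132. Of these 15 genes, Tiam1 alone lost its call when a library was left out (0.0911 without bulb replicate 2, and over 0.05 without bulb replicate 3). All 15 were called higher in bulb in the cKO libraries, where 4.77% of the genes tested were. Their P14 calls are not reported here.

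Olfactory ensheathing cells are glia that wrap the olfactory nerve in the outer bulb. Of their 12 markers 9 were tested, 6 were higher in bulb and 0 in cortex, with a median of 4.78. Their summed level was 7286 to 9403 in bulb and 928.2 to 1398 in cortex. Fabp7, which ensheathing cells share with astrocytes and radial glia, was at 1095, 1060, 565 and 352 in cortex and at 7467, 5181 and 5333 in bulb (3.09 ± 0.37, adjusted p = 7.78e-04) and made up most of the sum. Mybpc1 had no read in cortex and was at 38.4, 103 and 109 in bulb, at least 114-fold higher against a floor of 3 reads over the cortex group. Foxd3, a neural crest factor, likewise had no cortex read and was at 19.2, 18.5 and 55.8, at least 42.5-fold higher. Prss56, also a marker of these cells, had no cortex read and was below the filter. The other calls were Frzb, Npy and Apod, so that Frzb and Npy of the 15 genes above are also on this list, and the part of ensheathing cells in the bulb values was not tested. Sox10 was at 95.9, 82 and 81.8 in bulb and 0 to 40.9 in cortex and was not called (3.46, adjusted p = 0.115). Foxd3 kept its call in 0 of the 6 fits without a library in which it was tested (adjusted p up to 0.133, without bulb replicate 2), and Mybpc1 reached 0.0541 without bulb replicate 3. The count of 6 was 4 without bulb replicate 2 and 3 without bulb replicate 3. In the cKO libraries 8 were called higher in bulb and 1 higher in cortex, and at P14 6 and 1. In the controls 7 of the 9 lay above cortex in every bulb library and 1 lay below, beside 9.48% and 7.67% of all tested genes.

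Of 14 tested markers of bulb neurons and neuroblasts, 5 were higher in bulb and 1 in cortex (median 3.22), and the sums were 990 to 3172 in bulb and 377.9 to 596.9 in cortex, with bulb replicate 2 highest. Dcx, a microtubule protein of migrating neuroblasts, was at 332, 1357 and 130 in bulb and at 14.3 to 43.7 in cortex (3.70 ± 0.65, adjusted p = 0.007). The other bulb calls were Calb2 and Synpr, found in granule and periglomerular neurons, Cdhr1, found in mitral cells, and Sp8. Nrgn, a marker of cortical excitatory neurons, was at 62.2, 21.4, 113 and 64.5 in cortex and 2.61, 5.29 and 0.72 in bulb (-4.07 ± 0.73). Calb2 kept its call in 0 of the 6 fits without a library in which it was tested (adjusted p up to 0.154, without bulb replicate 2). Synpr kept it in 1 of 7 (0.169, without bulb replicate 1) and Cdhr1 in 5 of 7 (0.171, without bulb replicate 3). The bulb count was 2 without bulb replicate 2, 2 without bulb replicate 3, and 3 without any of cortex replicates 1, 2 and 3 or bulb replicate 1. In the general neuron list Gad1 and Gad2 were higher in bulb and Nefl in cortex, of 12 tested. Nefl lost its call in 6 of 7 fits, with an adjusted p up to 0.129 without cortex replicate 3.

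Of 13 tested early response genes, which neural activity or tissue dissociation can induce, 3 were called in bulb and 0 in cortex (median 1.52), and the sums were 2253 to 4596 in bulb and 463.9 to 1822 in cortex. Fos was at 20.7, 22.6, 128 and 195 in cortex and at 655, 1518 and 473 in bulb (3.70 ± 0.72, adjusted p = 0.013). Fosb and Egr1 differed by 3.35 ± 0.56 and 2.43 ± 0.59. Without bulb replicate 2 the count was 1, the adjusted p of Fos was 0.0721 and that of Egr1 was 0.158. In the cKO libraries 6 were called higher in bulb, and at P14 0 were called higher in bulb and 1 in cortex, where Fos differed by -0.70 (adjusted p = 0.515). Whether the region difference in these genes depends on age was not tested.

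Other cell types gave few calls in the P28 controls. Limma called 0 markers in either direction for oligodendrocyte precursors (8 tested), microglia (8), endothelial and mural cells (12) and dividing cells (7). In that order, their medians were 0.55, -1.71, -0.99955 and -0.19, beside 0.02 over all tested genes. The median of the 10 tested mature oligodendrocyte markers was -1.38. At P14, 8 of these 8 microglial and 9 of these 10 oligodendrocyte markers were called higher in cortex. For precursors, endothelial and mural cells and dividing cells, 2, 2 and 4 were called higher in bulb at P14 and 0 in cortex. Fibroblast and meningeal markers held 1 bulb call (Islr) of 10 (median 1.89), with sums of 1214 to 4342 in bulb and 189.9 to 1806 in cortex. Cortex replicates 3 and 4 held higher sums of microglial markers than cortex replicates 1 and 2 (1252 and 826.6 against 185.6 and 215.1), and also of oligodendrocyte, endothelial and fibroblast markers. With cortex replicates 3 and 4 alone 200 genes were called, and with replicates 1 and 2 alone 452. The 5 globin genes of the blood list had no read in any of the 7 libraries.

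**Figure D5:**
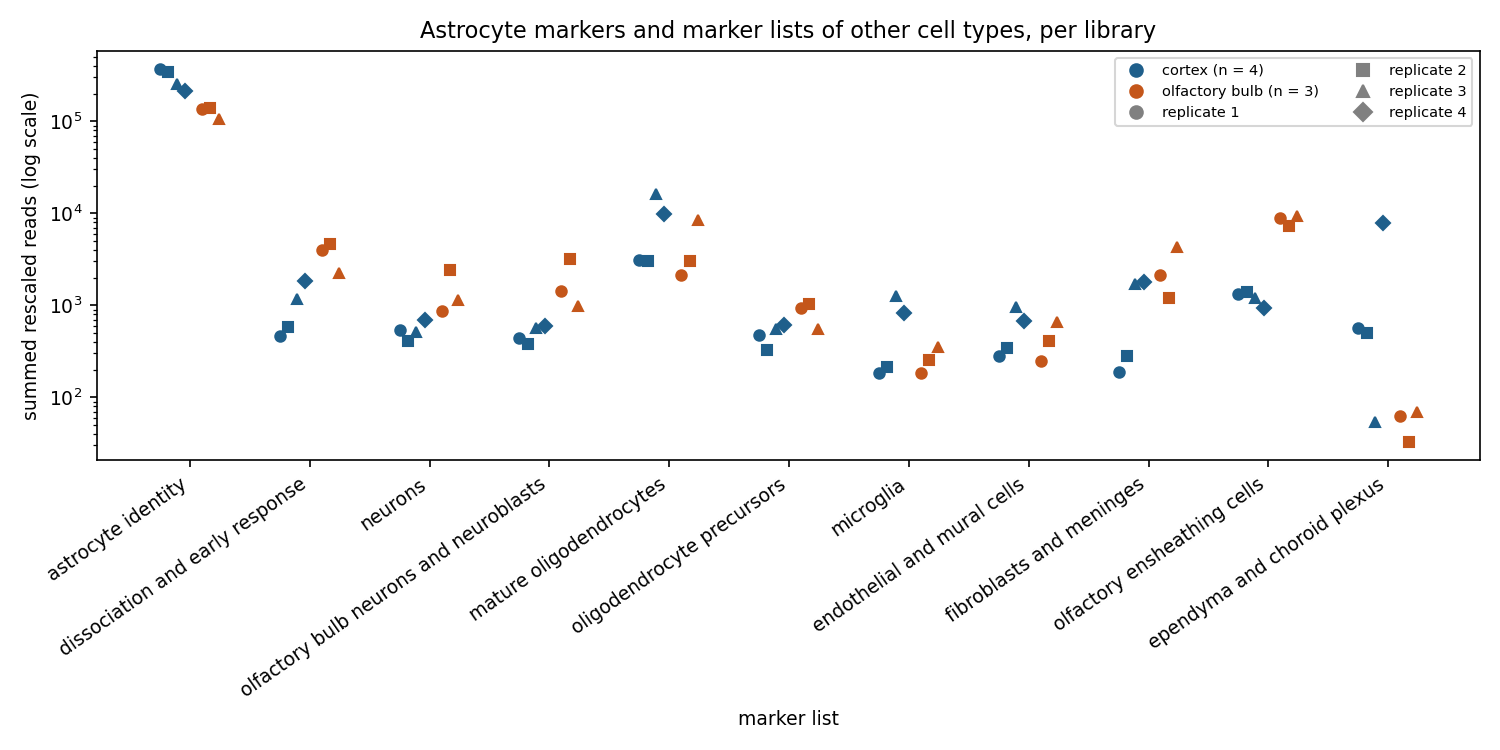
Summed rescaled reads (log axis) of the astrocyte marker list and of 10 lists for other cells and early response, per P28 control library. Blue symbols are cortex (n = 4), orange symbols olfactory bulb (n = 3), and symbol shape gives the replicate. Ensheathing cell markers stand apart between the regions, at 7286 to 9403 in bulb and 928.2 to 1398 in cortex.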

How the data were processed

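RNA-seq libraries were made from 500 pg to 1 ng of total RNA with the Trio RNA-seq kit, per the labels' protocols. Reads were aligned with STAR 2.5.0a to mm10 and DESeq2 1.20.0 was used, per the submitters' processing notes. The read counter, its strand setting and the annotation are not given in the sources used here, so overlapping and antisense genes cannot be told apart. The deposited values are a normalized signal per gene, in which the authors divided each library's reads by 1 factor, separately for each region's table. Dividing a column by its smallest positive value gave whole reads (100% of values within 0.05). Rn45s was left out, the tables were joined by row order, and the 7 libraries were rescaled together by median ratio. In 3 of the 4 deposited sets of values, 27 gene symbols had been turned into dates.

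Rescaled values were tested as log2(value + 1) in R 4.3.3 by limma 3.58.1, with its trend of variance on mean level, for genes with a mean of at least 10, with Benjamini-Hochberg adjustment over all of them. edgeR 4.0.16 (quasi-likelihood) and DESeq2 1.42.0 on recovered reads, other scalings, filters and pseudocounts, and leaving out each library were alternatives. With 4 libraries against 3, an exact permutation test of 1 gene cannot go below p = 0.05714. The fits were also run on simulated data with the same spread for every library. That setting holds no library as far from its group as bulb replicate 2, and the outcome is not reported here. Genes named by size were the 15 largest rises and 15 largest falls among called genes with at least the median mean level, groups that do not overlap and 1 sign in every fit without a library, leaving out predicted genes and pseudogenes. The others belong to 28 gene lists. Some list members are counted but not reported by name here. Members and lists were chosen with earlier results of these data known. RefSeq symbols of GRCm38.p6 matched 23204 of 24421 genes. Intervals are 95% and counting intervals and floors (3 reads) cover counting error only.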

Additional observations from a re-analysis of the deposited data

Results flagged for a closer look

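In 9 of 114 named genes and in 2 of 28 list sums, 1 cortex library stood apart from the other 3 by a gap beyond Dixon's 95% critical value. The rate of about 1 in 20 groups of 4 by chance holds for normally distributed values, and these were unlogged reads. For Frzb, Prokr2, Sp8 and Cdhr1 the other 3 cortex libraries had no read, which by itself sets the gap equal to the range. The count of 9 is therefore not set against that rate. Cortex replicate 4 held Ttr at 7522 and the choroid plexus and ependyma sum at 7784, and its sum of sex chromosome genes was 4107, nearly all Xist. The same library alone held the cortex reads of Frzb (2.1 rescaled reads), Prokr2 (2.1), Sp8 (0.7) and Cdhr1 (0.7), and it held the highest Synpr value (9.81). For these 4 genes that is 3 reads or fewer. Cortex replicate 2 was highest for Tex15 (10.69) and for Grm5 (240). Cortex replicate 1 was highest for Gria1 (146.3), still far below the lowest bulb value of 1215.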

How the results depend on the processing

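The main count of 446 genes was 205 without the variance trend, 918 with array weights, 844 by DESeq2, 843 with control and cKO libraries in 1 fit, 736 on the separately scaled deposited values and 200 with cortex replicates 3 and 4 alone, and the cause was not tested. Of the 736, 85.9% were higher in bulb, against 56.5% in the main fit, and of the 323 without bulb replicate 2, 44.3% were. Leaving out 1 library gave 282 to 408. Leaving out bulb replicate 2 and cortex replicate 4 together, chosen after seeing the data, gave 394. A minimum mean of 100 gave 328 (141 higher in bulb), and edgeR gave 404, of which 379 were shared. Named genes called by limma and not by edgeR included Gria2 (edgeR adjusted p = 0.055), Aldh1l1 (0.067), Id2 (0.059), Insig1 (0.054) and Ednrb (0.056). They also included Dhcr7 (0.103), Apod (0.094), Egr1 (0.107) and Nefl (0.072). The cKO count of 913 ranged from 470 to 1409 without 1 library. It was 497 by edgeR, in a fit that also left out bulb cKO replicate 2. The P14 count of 3656 ranged from 2672 to 3933. The test of genotype against region gave 0 in each fit, and so did not call Gabbr1, the deleted gene, either.

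Of the 98 named genes that were called, 61 kept their call in all 7 fits without a library. The sign of each named called gene was the same in every alternative run. For the 15 genes named by size on each side, 1 sign in the fits without a library was a condition of the choice. Among genes that were not called, Slc1a3 was at 0.20 on the deposited values. Megf10 was at 0.16 on those values, 0.0609 with array weights, and 0.0795 without both bulb replicate 2 and cortex replicate 4, and ranged from -0.579 to 0.035 without 1 library, highest without bulb replicate 2. A replicate block built from adjoining library numbers, without cortex replicate 4, called 553 genes (309 higher in bulb, 389 shared with the main fit). Deviations of the paired libraries correlated at 0.164, -0.04 and 0.143, so this pairing was not taken as given. Bulb replicate 1 correlated at 0.164 and 0.121 with cortex replicates 1 and 2 and at -0.175 and -0.19 with 3 and 4, and bulb replicate 3 at -0.14 and -0.0667 with cortex replicates 1 and 2 and at 0.143 and 0.121 with 3 and 4. With early against late library numbers as a covariate 662 genes were called, 441 of them shared with the main fit.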
